A study of Komagataella pastoris with 12 samples.

Results

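The response of the thermotolerant yeast G14 to heat is described here from 6 of the 12 RNA-seq libraries of the study, the 3 of G14 grown at 37 °C (G14_37) and the 3 of G14 grown at 30 °C (G14_30). All 5080 transcripts of the deposited expression table were used, and no transcript was selected by its value. The study set a thermotolerant strain beside its parent, and the other 6 libraries are those of the parent at both temperatures (Parent_30 and Parent_37). The parent is a recombinant GS115 strain of *Komagataella phaffii* that carries a recombinant lipase, and the labels give its genotype as wild type and the organism as *Komagataella pastoris*. G14, whose genotype the labels give as evolved, was obtained from it by plasma mutagenesis and stepwise adaptation to higher temperature. G14 is 1 isolate, so its lipase cassette and every mutation it carries are present at both temperatures, and a change with heat is a property of this clone. The cultures grew in YPD, a rich glucose medium, to the logarithmic phase, with 3 biological replicates per group. How long they had been at 37 °C is not given in the sources used here.

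Yeast cells answer heat with molecular chaperones, proteins of the Hsp70, Hsp90 and Hsp40 families that hold and refold other proteins, and with the ubiquitin and proteasome system that removes damaged ones. Heat shock factor and the Msn family switch on many of these genes, while genes for ribosomes are commonly turned down. In methylotrophic yeasts such as *K. phaffii*, peroxisomes house fatty acid oxidation, the first steps of methanol use and catalase, the enzyme that breaks down hydrogen peroxide.

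Values are FPKM, fragments scaled by transcript length and library size, and levels of different genes can be compared on this scale because it is per length. Changes are differences of log2(FPKM + 1), called log2 fold changes below, and they understate the change of genes of low expression. A gene rose or fell where limma, fitted to all 12 libraries with 4 group means, gave an adjusted p below 0.05 (Benjamini-Hochberg, all 5080 transcripts) together with a log2 fold change of more than 1 in size. Separately, groups were said not to overlap where all 3 libraries at 37 °C lay on one side of all 3 at 30 °C. In a bulk culture, fewer cells that express a gene and less RNA per cell cannot be told apart.

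The 6 G14 libraries held between 13450548 and 22047040 fragments on transcripts. G14_37 replicate 1 stood apart from its group. It lay more than 1 log2 unit above both other replicates for 255 transcripts and below both for 114, against at most 52 and 60 for the other replicates at 37 °C. Across transcripts its correlation with replicates 2 and 3 was 0.88 and 0.863, and these correlated at 0.959 with each other. G14_30 replicate 3 was below its 2 partners by the same margin for 59 transcripts. No pair of replicates agreed within counting noise, with a chi-square of at least 21.4 per degree of freedom among the G14 pairs, so every library was counted once.

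Heat changed 192 transcripts in G14. Of all transcripts, 113 rose (2.22%) and 79 fell (1.56%), and 1067 did not overlap upwards (21.0%) and 1073 downwards (21.1%). Both criteria together were met by 186, of which 108 rose and 78 fell. Replicate 1 was the most extreme of the 3 libraries at 37 °C for 86 of the 108 and for 60 of the 78. With each of the 12 libraries left out in turn, 68 of the 186 were called every time, 46 that rose and 22 that fell. These calls are said below to have held. Leaving out a parent library alters the shared spread but not the G14 fold change, so those fits ask less of a call. Without G14_37 replicate 1, 57 of the 108 and 37 of the 78 were still called. The counts of all calls, up and down, were 62 and 42 without that library, 70 and 50 without G14_30 replicate 3, and 246 and 177 without G14_37 replicate 3. A fit of the 6 G14 libraries alone, whose spread comes from G14 only, called 28 transcripts up and 17 down. It called 45 of the 186, so calls said to have held do not all stand in it. Scaling every library to the same sum of FPKM (TPM) moved the median of all transcripts from 0.003 to 0.22 on the log2 scale and the split of calls to 240 up and 29 down. Changes near 0 therefore have no fixed sign, and medians of groups are read below against the value of all transcripts under the same scaling. Counts of list members without overlap are to be read against the 21.0% upwards and 21.1% downwards of all transcripts. Counts of calls are to be read against the 2.22% and 1.56%.

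**Figure D1:**
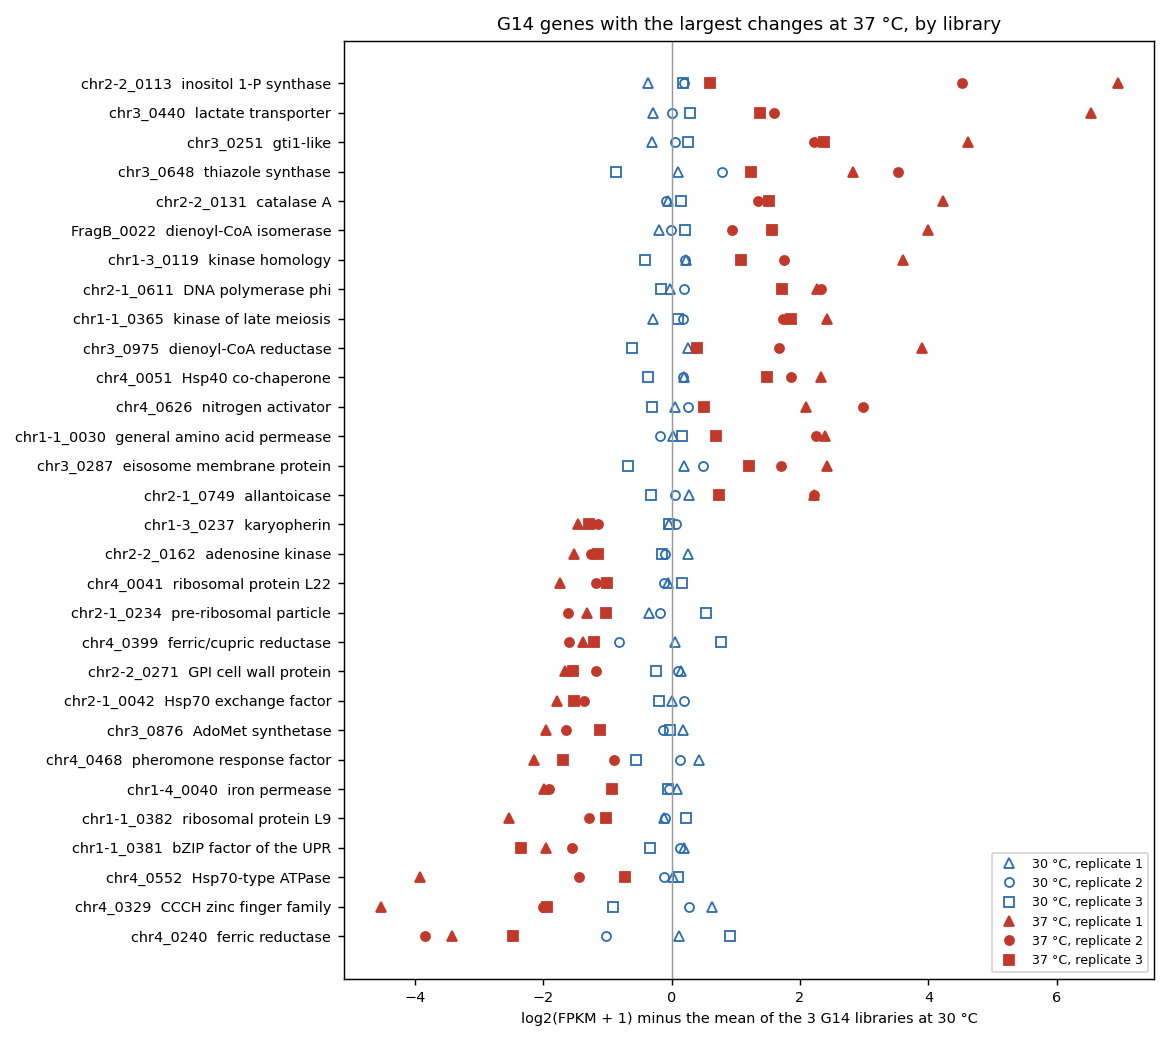
The 15 largest increases and 15 largest decreases among described genes that were called, did not overlap and kept a log2 fold change over 1 in size without G14_37 replicate 1; the horizontal axis is log2(FPKM + 1) of each library minus the mean of the 3 G14_30 libraries, open blue symbols are 30 °C and filled red symbols 37 °C. Replicate 1 at 37 °C (triangles) is the far point for catalase A and the lactate transporter, whereas the 3 replicates lie close together for DNA polymerase phi and the Hsp70 exchange factor.

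Genes of the chaperone machinery were lower at 37 °C than at 30 °C in G14. In a list of 17 genes described as Hsp70, Hsp90 or their partners, 4 fell and 0 rose, 12 did not overlap downwards and 2 upwards, and the median log2 fold change was -0.86 (-0.60 without G14_37 replicate 1, -0.64 under TPM). Over all transcripts that median was 0.003. The change that held was that of the Hsp70 (Ssa1p) nucleotide exchange factor PAS_chr2-1_0042 (*FES1* in the study), which resets Hsp70 by releasing its ADP and lies on chromosome 2 from 74120 to 74983. Its FPKM was 744, 840 and 641 at 30 °C and 213, 285 and 257 at 37 °C. All 3 heated libraries were far below the others and close to each other, and the log2 fold change was -1.56 (SE 0.158, limma adjusted p = 0.000506).

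The other 3 members that fell depended more on single libraries. The Hsp70-type ATPase PAS_chr4_0552 (*SSA1* in the study), described as involved in protein folding, had 3340, 3036 and 3521 FPKM at 30 °C and 217, 1215 and 1987 at 37 °C. The heated libraries were spread widely, with replicate 1 lowest. Its log2 fold change was -2.03 (SE 0.603, adjusted p = 0.0327), -1.08 without that replicate, and the adjusted p reached 0.0902 when any G14_30 library was left out. The ATPase of the endoplasmic reticulum (ER) PAS_chr2-1_0140 (*KAR2*), which draws proteins into the ER and folds them there, had 1390, 1342 and 1307 FPKM at 30 °C and 332, 615 and 842 at 37 °C. It fell by 1.27 on the log2 scale (SE 0.273, adjusted p = 0.0104), and by 0.90, under the fold threshold, without G14_37 replicate 1. PAS_chr2-2_0066, a regulator of Hsp90 and Hsp70 function, fell by 1.25 (SE 0.272) and by 0.87 without that replicate.

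Hsp90 itself did not pass. PAS_chr1-4_0130 had 3346, 3488 and 3454 FPKM at 30 °C and 811, 2115 and 2745 at 37 °C, without overlap, with a log2 fold change of -1.03 and an adjusted p of 0.0565. The Hsp90 co-chaperone PAS_chr2-1_0518 (*STI1*) was at -0.97 (adjusted p = 0.018) and the Hsp90 activator PAS_chr3_0170 (*HCH1*) at -0.86 (0.014), both under the fold threshold. The stress-type Hsp70 PAS_chr3_0230 (*SSA3*) was at -0.58 (adjusted p = 0.0926) with overlapping groups. The heat shock protein that cooperates with Hsp40 and Hsp70, PAS_chr1-3_0102, outside both chaperone lists, was at -0.69 (adjusted p = 0.0453) and overlapped. The highest value of the list was that of PAS_chr2-1_0323, an essential Hsp90 co-chaperone, at 0.56 (adjusted p = 0.09). The mitochondrial Hsp70 partner PAS_chr2-2_0323 (*MDJ1*) was at -0.27 (adjusted p = 0.257).

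**Figure D2:**
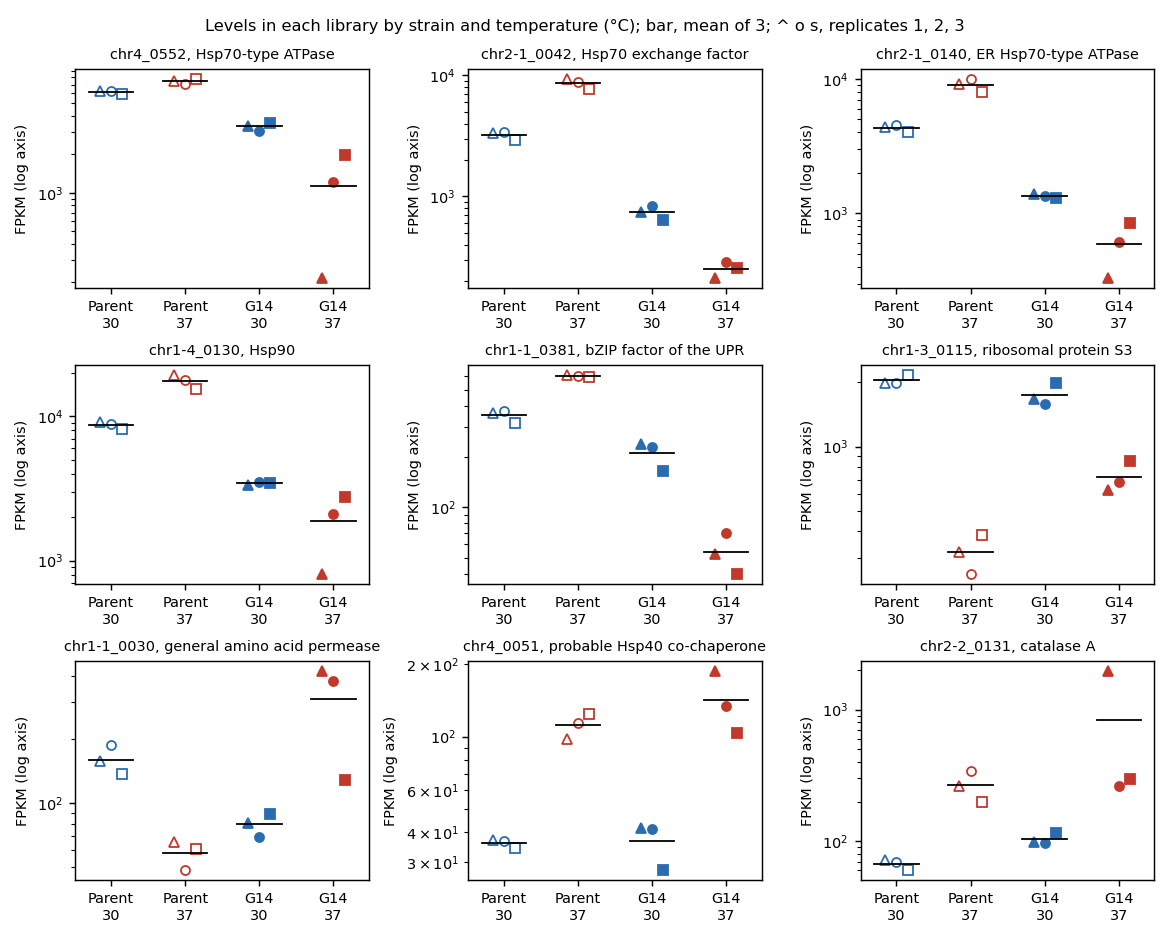
FPKM on a log axis in each of the 12 libraries for 9 genes, by strain and temperature; symbols are replicates 1, 2 and 3 (triangle, circle, square), bars are means of 3, open symbols are the parent and filled symbols G14. For PAS_chr2-1_0042 the G14_37 libraries at 213 to 285 FPKM lie below every other library, whereas the probable Hsp40 co-chaperone PAS_chr4_0051 is higher at 37 °C in both strains.

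The bZIP transcription factor PAS_chr1-1_0381, on chromosome 1 from 1268884 to 1269879, regulates the unfolded protein response, the programme that adds folding capacity to the ER. It had 237, 228 and 164 FPKM at 30 °C and 52.5, 69.7 and 40 at 37 °C. The groups were well apart, and the log2 fold change of -1.96 (SE 0.192, adjusted p = 0.000506) was -1.95 without G14_37 replicate 1. In the list of 44 other chaperones, 1 gene rose and 2 fell, 20 did not overlap downwards and 2 upwards, and the median was -0.32 (-0.21 without G14_37 replicate 1, -0.10 under TPM). The cyclophilin PAS_chr3_0567, a prolyl isomerase, fell by 1.35 (SE 0.343, adjusted p = 0.0184), and by 0.85 without that replicate. The ER lumen chaperone PAS_chr1-3_0063 fell by 1.11 (SE 0.203, adjusted p = 0.00636), and by 0.84 without it. Calnexin, PAS_chr2-1_0322, a lectin chaperone of glycoproteins that was chosen after its values were seen, had 650, 599 and 600 FPKM at 30 °C and 205, 280 and 418 at 37 °C, a log2 fold change of -1.09 (SE 0.208) that was -0.85 without the same replicate.

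In the chaperone lists, 1 gene was called up, PAS_chr4_0051 on chromosome 4 from 106739 to 107680, a probable Hsp40 co-chaperone with a DnaJ-like domain, the part of Hsp40 proteins that stimulates Hsp70. Its FPKM rose from 41.6, 41.2 and 27.9 at 30 °C to 187, 134 and 104 at 37 °C. No library overlapped, the log2 fold change of 1.89 (SE 0.207, adjusted p = 0.000582) held, and it was 1.67 without G14_37 replicate 1. Heat shock factor, PAS_chr2-1_0026 (*HSF1*), the trimeric activator of chaperone genes, had 73.8, 67.1 and 66.4 FPKM at 30 °C and 85.6, 78.3 and 85.7 at 37 °C, a small increase without overlap (log2 fold change 0.26, adjusted p = 0.074). The desiccation protein of the plasma membrane PAS_chr4_0627 rose by 1.05 (SE 0.181, adjusted p = 0.00488), with 524, 622 and 391 FPKM against 1179, 857 and 1117. Its change was 0.87 if G14_30 replicate 3 was left out, 0.96 for replicate 1 and 0.997 for replicate 3 of G14_37, each just under the fold threshold.

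Genes for cytosolic ribosomal proteins were lower at 37 °C almost without exception. Of 82, 81 did not overlap downwards and 20 fell, and the median log2 fold change was -0.87, in a range from -1.61 to 0.03. The median was -0.69 without G14_37 replicate 1 and -0.65 under TPM. By library, the median difference from the 30 °C mean was -1.24 in replicate 1, -0.74 in replicate 2 and -0.61 in replicate 3, with replicate 1 lowest for 81 genes. The median level of the list, as log2(FPKM + 1), was 11.37, 11.33 and 11.62 at 30 °C and 10.20, 10.74 and 10.82 at 37 °C, so the heated libraries were all below the others for the list as well.

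Of the ribosomal proteins that fell, 3 held. The small subunit protein S3, PAS_chr1-3_0115, had 1679, 1590 and 1988 FPKM at 30 °C and 623, 685 and 853 at 37 °C, a log2 fold change of -1.29 (SE 0.176, adjusted p = 0.00199). The large subunit protein L22, PAS_chr4_0041, was at -1.31 (SE 0.184) and L9, PAS_chr1-1_0382, at -1.61 (SE 0.346). L9 ranged most widely at 37 °C, with 330, 781 and 937 FPKM against 1754 to 2233 at 30 °C. L38, PAS_chr1-4_0412, had a change of -1.28 (adjusted p = 0.0106) that was -0.99 without G14_37 replicate 1.

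Genes that build ribosomes and feed translation lay lower too, mostly by less than the fold threshold. Of 94 genes of ribosome biogenesis, 3 fell and 0 rose, 55 did not overlap downwards and 1 upwards, and the median was -0.55 (-0.57 without G14_37 replicate 1). The change that held was that of PAS_chr2-1_0234, a part of the particles that mature into the large subunit, from 114, 129 and 211 FPKM to 57.9, 47.0 and 71.1 (log2 fold change -1.32, SE 0.273, adjusted p = 0.0091). For the nucleolar processome proteins PAS_chr2-1_0655 (-1.14) and PAS_chr3_0885 (-1.06), the change was under the fold threshold without G14_30 replicate 3 and without G14_37 replicate 2. Of 50 genes of tRNA charging and modification, 2 fell, 28 did not overlap downwards and the median was -0.30. The tRNA methyltransferase subunit PAS_chr1-4_0374 fell from 47.1, 51.3 and 63.1 FPKM to 22.2, 19.8 and 24.5 (-1.24, SE 0.217), which held, and PAS_chr3_1100 by 1.15, which was 0.98 without G14_30 replicate 3. None of 27 translation factors passed both thresholds, but 24 did not overlap downwards, 20 had an adjusted p under 0.05 with a negative change, and the median was -0.50. The eIF3 subunit PAS_chr3_0701 had the smallest p of that list, at -0.67 (adjusted p = 0.00385).

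**Figure D3:**
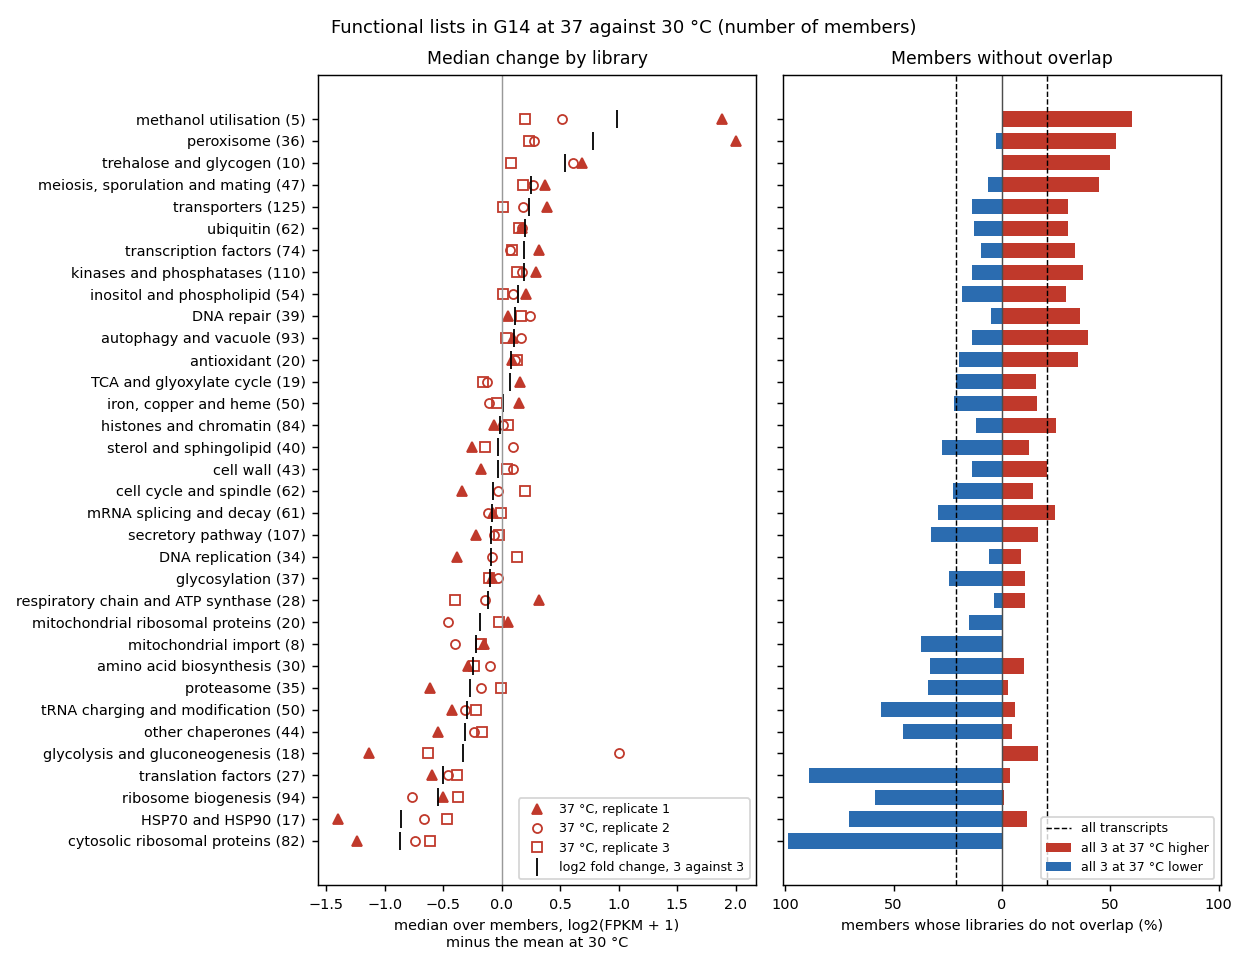
The 34 functional lists with their number of members. On the left, the median over members of log2(FPKM + 1) minus the 30 °C mean for each G14_37 library (symbols) and the median log2 fold change (black bars); on the right, the percentage of members whose 3 libraries at 37 °C lay all above (red) or all below (blue) those at 30 °C, with dashed lines at the 21.0% and 21.1% of all transcripts. The ribosomal protein bar reaches 81 of 82 members, and replicate 1 lies far to the right of the other 2 replicates for the peroxisome list.

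Several genes for uptake and handling of iron fell, while their list as a whole did not shift. Of 50 genes on iron, copper and heme, 5 fell and 1 rose, although the median, 0.01, was near that of all transcripts and 11 did not overlap downwards against 8 upwards. The ferric reductase PAS_chr4_0240, which frees iron from siderophores before uptake, had 285, 128 and 494 FPKM at 30 °C and 23.6, 17.3 and 46.5 at 37 °C (log2 fold change -3.25, SE 0.478, adjusted p = 0.00266). The levels at 30 °C were scattered, yet the lowest was well above the highest at 37 °C. The high affinity iron permease PAS_chr1-4_0040, on chromosome 1 from 1485260 to 1486357, carries iron across the plasma membrane. Its values were 997, 913 and 903 FPKM at 30 °C and 236, 248 and 492 at 37 °C (-1.61, SE 0.242, adjusted p = 0.00288). A second reductase of ferric and cupric ions, PAS_chr4_0399, fell from 219, 119 and 362 to 81.1, 69.5 and 91.3 FPKM (-1.39, SE 0.313). PAS_chr2-1_0270, a plasma membrane protein with a role in the uptake of protoporphyrin IX, the precursor of heme, fell from 16.1, 15.4 and 16.0 to 4.92, 6.74 and 7.33 FPKM (-1.21, SE 0.139, adjusted p = 0.000806). These 4 changes held. With the 6 G14 libraries alone, 1 gene of the list was called down and 0 up. The other calls of the list were chosen after their values were seen. The iron oxidase PAS_chr2-1_0787 fell by 1.08 and the reductase PAS_chr3_0350 rose by 1.02, and these were -0.86 and 0.78 without G14_37 replicate 1. Both calls were then lost. The oxidase also lost its call without G14_30 replicate 3, at -0.94, and the reductase without G14_30 replicate 1, at 0.99.

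S-adenosylmethionine synthetase, PAS_chr3_0876, which makes the methyl donor of the cell, had 1504, 1214 and 1307 FPKM at 30 °C and 343, 429 and 619 at 37 °C (log2 fold change -1.57, SE 0.237, adjusted p = 0.00288). Adenosine kinase, PAS_chr2-2_0162, described as required for the use of S-adenosylmethionine, had 624, 486 and 469 FPKM against 181, 218 and 237 (-1.31, SE 0.166, adjusted p = 0.00131). In both genes the groups were clearly separate, and both changes held. Also lower, and held, were a GPI-anchored cell wall protein, PAS_chr2-2_0271 (-1.46, SE 0.206), and a karyopherin, PAS_chr1-3_0237, which carries cargo through the nuclear pore and whose 3 values at 37 °C, 71.3, 88.2 and 80.3 FPKM, were tightly grouped below 192, 207 and 192 (-1.29, SE 0.137, adjusted p = 0.000506).

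DNA polymerase phi, PAS_chr2-1_0611, on chromosome 2 from 1143124 to 1144578, rose with close replicates. Its counterpart in *Saccharomyces cerevisiae* is known for work on ribosomal DNA rather than for replication. It had 61.0, 71.8 and 55.4 FPKM at 30 °C and 304, 319 and 207 at 37 °C (log2 fold change 2.10, SE 0.189, adjusted p = 0.000498). Thiazole synthase, PAS_chr3_0648, makes the thiazole ring of thiamine and rose from 435, 701 and 222 FPKM to 2888, 4717 and 965 (2.53, SE 0.55, adjusted p = 0.0107). In both conditions replicate 2 was highest and replicate 3 lowest, and the heated libraries stayed above. The gti1-like protein PAS_chr3_0251, similar to a gluconate transport inducer of *Schizosaccharomyces pombe*, went from 5.46, 7.31 and 8.60 FPKM to 195, 36.3 and 40.7 (3.07, SE 0.499, and 2.30 without G14_37 replicate 1). PAS_chr3_0287, a membrane protein localized to mitochondria, rose by 1.77 (SE 0.326). A kinase expressed late in meiosis, PAS_chr1-1_0365, rose from 0.756, 1.43 and 1.30 FPKM to 10.5, 6.16 and 6.74 (2.01, SE 0.21, adjusted p = 0.000506). These changes held, and the last is at a low level, where 1 fragment on 1 kb equals 0.0417 to 0.0695 FPKM.

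The general amino acid permease PAS_chr1-1_0030, on chromosome 1 from 594551 to 596305, imports most amino acids. Its FPKM was 80.4, 69.5 and 88.9 at 30 °C and 420, 378 and 129 at 37 °C, so that replicate 3 was higher than the 30 °C libraries by little (log2 fold change 1.78, SE 0.361, adjusted p = 0.00875, held). Allantoicase, PAS_chr2-1_0749, which breaks down the nitrogen store allantoate, had 84.5, 72.3 and 56.1 FPKM at 30 °C and 329, 329 and 118 at 37 °C (1.73, SE 0.335, held). Of its heated libraries replicate 3 was again the lowest. The transcriptional activator of genes under nitrogen catabolite repression, PAS_chr4_0626, had 9.71, 11.4 and 7.43 FPKM against 43.5, 81.0 and 13.8. Its log2 fold change of 1.86 (SE 0.468, adjusted p = 0.0177) lost its call without G14_30 replicate 3 (adjusted p = 0.0646).

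Transporters as a group leaned upwards in 2 of the 3 heated libraries. Of 125, 8 rose and 2 fell, and the median was 0.24 (0.13 without G14_37 replicate 1). Without overlap were 38 upwards (30.4%) and 17 downwards (13.6%), beside 21.0% and 21.1% of all transcripts. The median difference from the 30 °C mean was 0.38, 0.18 and 0.01 in replicates 1, 2 and 3 at 37 °C. The myo-inositol transporter PAS_chr2-1_0489 rose from 116, 184 and 103 FPKM to 406, 357 and 249 (1.34, SE 0.229, adjusted p = 0.00482, held). The phosphate transporter PAS_chr4_0337 was at 1.53 (adjusted p = 0.0197) and at 1.02 without G14_37 replicate 1, and its adjusted p was at most 0.0668 with 1 library left out. The choline and ethanolamine transporter PAS_chr3_0511 fell from 122, 121 and 131 to 69.3, 53.0 and 64.1 FPKM (-1.002, SE 0.127), a change at the edge of the fold threshold that was below it in 2 of the 12 fits that leave out 1 library. Among 54 genes on inositol and phospholipids, 2 rose, 1 fell and the median was 0.14. The largest value was that of inositol 1-phosphate synthase, PAS_chr2-2_0113, the first enzyme of inositol synthesis, with 3.75, 6.02 and 5.95 FPKM at 30 °C and 756, 140 and 8.28 at 37 °C. Its heated libraries differed from each other by more than the groups did, and its log2 fold change of 4.02 was 2.56 without G14_37 replicate 1 and reached an adjusted p of 0.079 with 1 library left out.

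Amino acid synthesis was mixed. Of 30 genes, 2 rose and 2 fell, 3 did not overlap upwards and 10 downwards, and the median was -0.25. The regulatory subunit of acetolactate synthase, PAS_chr2-1_0579, an enzyme of branched amino acids, rose from 1.29, 1.58 and 1.45 FPKM to 11.9, 4.72 and 5.75 (1.70, SE 0.29, held). Glutamate synthase, PAS_chr3_1024, rose by 1.36 (adjusted p = 0.0237), and by 0.90 without G14_37 replicate 1. The first enzyme of histidine synthesis, PAS_chr1-4_0234, fell by 1.02 (adjusted p = 0.0048), and by 0.79 without it. S-adenosylmethionine synthetase was the other decrease.

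Peroxisome genes lay higher at 37 °C, chiefly in 1 library. Of its 36 genes, 5 rose and 0 fell, 19 did not overlap upwards and 1 downwards, and 34 had a positive change. The median over the list was 2.002 in G14_37 replicate 1 but 0.28 and 0.23 in replicates 2 and 3, and in replicate 1 23 members were more than 1 log2 unit above both others. The median log2 fold change of 0.78 was 0.24 without that replicate (all transcripts 0.008). The auxiliary enzyme of fatty acid oxidation PAS_chr2-2_0019, a 2,4-dienoyl-CoA reductase, was the member that held, from 182, 183 and 227 FPKM to 1072, 537 and 358 (1.58, SE 0.324, adjusted p = 0.00887, and 1.15 without replicate 1).

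The other members that rose followed replicate 1. Catalase A, PAS_chr2-2_0131 (*CAT*), which breaks down the hydrogen peroxide made in peroxisomes, had 98.8, 97.3 and 115 FPKM at 30 °C and 1959, 264 and 297 at 37 °C. Replicates 2 and 3 were close to each other and above all libraries at 30 °C, and replicate 1 was several times higher again. The log2 fold change was 2.36 (SE 0.594, adjusted p = 0.0177) and 1.43 (adjusted p = 0.002) without replicate 1, and the call was lost without G14_30 replicate 1 or replicate 3, where the adjusted p reached 0.052. A second dienoyl-CoA reductase, PAS_chr3_0975, had 73.9, 80.3 and 40.1 FPKM against 944, 201 and 81.7 (1.99, adjusted p = 0.0484). It was at 1.04 (adjusted p = 0.0615) without replicate 1 and was called in 1 of the 12 fits with a library left out. The peroxins PAS_chr1-4_0349 (biogenesis factor 8), at 1.15, and PAS_chr4_0794 (*PEX14*), at 1.08, were at 0.76 and 0.59 without replicate 1. PAS_chr2-2_0272 (*PXA*), a subunit of the peroxisomal fatty acid carrier, had 20.1, 18.6 and 21.3 FPKM against 204, 25.6 and 34.9 and did not pass (1.47, adjusted p = 0.0805). Outside the list, the dienoyl-CoA isomerase PAS_FragB_0022 had 124, 14.2 and 22.3 FPKM at 37 °C against 5.86 to 8.09 (2.17, adjusted p = 0.0221), at 1.26 without replicate 1, and its adjusted p was over 0.05 without any one G14_30 library.

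Of the 5 genes of methanol use, 0 passed the test, all 5 had a positive change and 3 did not overlap upwards, beside 21.0% of all transcripts. The median log2 fold change was 0.99 and 0.32 without G14_37 replicate 1, and 3 were called up under TPM. The first pair described here was chosen after its values were seen. Formate dehydrogenase, PAS_chr3_0932, the last step of methanol use, had 5415 FPKM in G14_37 replicate 1 but 5.52 and 2.79 in replicates 2 and 3 and 3.86 to 9.03 at 30 °C. Alcohol oxidase, PAS_chr4_0821, the first step, had 111, 14.5 and 16.6 FPKM at 37 °C and 8.69, 10.1 and 10.7 at 30 °C (1.53, adjusted p = 0.0729). Dihydroxyacetone kinase, PAS_chr3_0841, had 457, 245 and 159 FPKM against 147, 145 and 107 (0.99, adjusted p = 0.0384). Replicate 1 was the highest library in each of these genes, by far in the first.

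For the genes of gluconeogenesis given here G14_37 replicate 1 again stood apart, while values of glycolysis differed among all 3 heated libraries. Phosphoenolpyruvate carboxykinase, PAS_FragB_0061, which commits carbon to glucose synthesis, had 1719, 40.7 and 23.1 FPKM at 37 °C against 15.2 to 23.8 at 30 °C, and fructose-1,6-bisphosphatase, PAS_chr3_0868, had 999, 91.4 and 70.6 against 74.3 to 98.5. Pyruvate kinase, PAS_chr2-1_0769, of glycolysis, had 211, 4080 and 997 FPKM at 37 °C and 1858, 1974 and 979 at 30 °C. Over 18 genes of both pathways the median difference from the 30 °C mean was -1.13 in replicate 1, 1.0 in replicate 2 and -0.63 in replicate 3, 3 did not overlap upwards and 0 downwards, and none was called. The lactate transporter PAS_chr3_0440, which imports a carbon source other than glucose, had 709, 22.2 and 19.0 FPKM at 37 °C and 5.28, 6.66 and 8.36 at 30 °C (3.17, adjusted p = 0.0457). It was at 1.49 without replicate 1 and was called in 3 of the 12 fits. Whether the state of the culture of replicate 1 has a part in the peroxisome values was not tested. The carboxykinase, the bisphosphatase and pyruvate kinase were chosen after their values were seen.

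Defence against reactive oxygen did not move as a block. Of 20 genes, 1 rose and 1 fell, 7 did not overlap upwards and 4 downwards, and the median was 0.08. The increase was catalase A. The decrease was a cytoplasmic thioredoxin, PAS_chr3_0670, chosen after its values were seen, with 44.9, 36.7 and 123 FPKM at 30 °C and 2.57, 10.6 and 36.9 at 37 °C. Its groups met, since the highest heated library just passed the lowest at 30 °C, and its log2 fold change of -2.37 (SE 0.717, adjusted p = 0.0347) was -1.51 (adjusted p = 0.0777) without G14_37 replicate 1. Its call was also lost without G14_37 replicate 2 and without G14_30 replicate 1 or 3. Cytosolic superoxide dismutase, PAS_chr4_0786 (*SOD1*), had 903, 842 and 1155 FPKM at 30 °C and 999, 694 and 1378 at 37 °C, fully overlapping. The mitochondrial enzyme PAS_chr1-4_0071 (*SOD2*) had 418, 420 and 442 against 460, 464 and 569 FPKM, all higher by little (0.22, adjusted p = 0.179). Thioredoxin peroxidase, PAS_chr2-2_0220 (*TSA1*), was at -0.57 (adjusted p = 0.11), the nuclear thiol peroxidase PAS_chr1-1_0155 (*DOT5*) at -0.58 (0.0774), and the mitochondrial peroxiredoxin PAS_chr3_0906 (*PRX1*) at 0.00. PAS_chr1-4_0659, *AHP1* in the study and not described in the table, was at 0.20 (adjusted p = 0.459).

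Protein breakdown changed little in G14. None of 62 ubiquitin genes and none of 35 proteasome genes passed both thresholds. At an adjusted p under 0.05 alone, 9 ubiquitin genes lay higher and 5 lower, and 1 proteasome gene higher and 2 lower. The ubiquitin hydrolase PAS_chr1-1_0040 had the smallest p, from 39.3, 42.1 and 37.0 FPKM to 67.1, 61.7 and 59.0 (0.65, SE 0.087, adjusted p = 0.00185). Polyubiquitin, PAS_chr4_0762 (*UBI4*), had 1053, 1089 and 980 FPKM at 30 °C and 991, 1256 and 1432 at 37 °C, with overlap. The conjugating enzyme PAS_chr3_0709 (*UBC11*) was at 0.55 (adjusted p = 0.0112), the ligase component PAS_chr2-2_0022 (*BUL1*) at -0.55 (0.00803) and the protease PAS_chr3_0117 (*UBP2*) at 0.14 (0.351). Of the 35 proteasome genes 12 did not overlap downwards (34.3%) and 1 upwards (2.86%), beside 21.1% and 21.0% of all transcripts. Their median of -0.27 was -0.08 without G14_37 replicate 1. The conjugating enzyme of gluconeogenic regulation PAS_chr3_0779 (*UBC8*) was at 0.997 (adjusted p = 0.0502), the ligase PAS_chr4_0444 at 0.68 (0.0446) and the vacuolar ligase PAS_chr1-1_0290 (*PIB1*) at 0.97 (0.0623).

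Vacuolar and autophagy genes leaned upwards within small changes. Of 93, 3 rose and 0 fell, 37 did not overlap upwards and 13 downwards, and the median was 0.10. Carboxypeptidase Y, PAS_chr1-4_0013, a vacuolar protease, rose from 74.7, 82.7 and 70.3 FPKM to 214, 138 and 129 (1.04, SE 0.165, adjusted p = 0.00385), and was at 0.81 without G14_37 replicate 1. Vacuolar proteinase B, PAS_chr1-4_0548, at 1.09, and alpha mannosidase, PAS_chr4_0790, at 1.08, were at 0.51 and 0.75 without it. Acid trehalase, PAS_chr4_0342, which splits the stress sugar trehalose, rose from 27.9, 30.5 and 28.0 to 207, 55.8 and 44.6 FPKM (1.45, adjusted p = 0.034), and was at 0.77 without replicate 1. It was the gene called among 10 of trehalose and glycogen, of which 5 did not overlap upwards and 0 downwards (median 0.54, and 0.32 without replicate 1).

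Among 74 transcription factors, 4 rose and 3 fell, and the median was 0.19. Without overlap were 25 upwards (33.8%) and 7 downwards (9.46%), beside 21.0% and 21.1% of all transcripts. Those that fell included the CCCH zinc finger gene PAS_chr4_0329, from 241, 188 and 82.1 FPKM to 5.74, 37.8 and 39.8 (-2.83, SE 0.608, and -1.97 without G14_37 replicate 1), and the regulator of the pheromone response PAS_chr4_0468, from 61.9, 50.01 and 30.6 to 9.54, 24.0 and 13.5 (-1.58, SE 0.301). Both held. The activator related to Msn2p, PAS_chr2-1_0723 (*MSN4*), a factor of general stress, had 109, 112 and 84.3 FPKM at 30 °C and 441, 206 and 156 at 37 °C. All heated libraries were above the others, and its log2 fold change of 1.25 (SE 0.304, adjusted p = 0.0153) was 0.82 without G14_37 replicate 1 and missed the adjusted p without G14_30 replicate 3 (0.0609). The oxidative stress factor PAS_chr4_0601 (*YAP1*) was at 0.34 (adjusted p = 0.0618), and PAS_chr3_1235 (*SKN7*) at 0.51 (0.0936). PAS_chr3_0637 (*OPY2*), at -0.05, and the cofactor PAS_chr4_0634 (*SWI6*), at 0.16, overlapped between temperatures.

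Meiosis and kinase genes were more often higher than lower. Of 47 genes of meiosis, sporulation and mating, 21 did not overlap upwards (44.7%) and 3 downwards (6.38%), beside 21.0% and 21.1% of all transcripts. The median was 0.25 (0.22 without G14_37 replicate 1). Of 110 kinases and phosphatases, 41 did not overlap upwards (37.3%) and 15 downwards (13.6%), with a median of 0.19. The gene called upwards in both lists was the late meiosis kinase given above. In the cell wall list of 43, the catalytic subunit of glucan synthase, PAS_chr2-1_0263, which makes the main wall polymer, rose from 23.1, 26.5 and 17.2 FPKM to 93.3, 52.2 and 36.3 (1.32, SE 0.286, and 0.96 without replicate 1). Dihydroceramidase, PAS_chr2-2_0252, of sphingolipid metabolism, rose by 1.28 and was at 0.87 without it. The regulatory subunit of ribonucleotide reductase PAS_chr2-1_0209 rose by 1.11 (adjusted p = 0.0343) and was called in 6 of the 12 fits.

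Other lists held few or no calls. Among 37 glycosylation genes phosphomannomutase, PAS_chr2-2_0053, which makes the donor sugar GDP-mannose, fell by 1.15 (SE 0.267), and by 0.79 without G14_37 replicate 1. Among 107 genes of the secretory pathway, 35 did not overlap downwards (32.7%) and 18 upwards (16.8%), beside 21.1% and 21.0% of all transcripts. PAS_chr2-1_0692 of that list, with a role in UDP-galactose transport to the Golgi, fell by 1.04 and by 0.77 without G14_37 replicate 1. None was called among 28 respiratory chain genes (median -0.11), 19 of the TCA and glyoxylate cycle (0.07), 20 mitochondrial ribosomal proteins (-0.19), 8 of mitochondrial import (-0.22), 39 of DNA repair (0.11), 84 of histones and chromatin (-0.01), 62 of the cell cycle (-0.07) and 61 of mRNA splicing and decay (-0.09). DNA repair genes did not overlap upwards for 14 (35.9%) and downwards for 2 (5.13%). The sign of the glycosylation, secretory, respiratory, mitochondrial ribosomal, cell cycle, chromatin, splicing, cell wall, sterol and DNA replication medians turned positive under TPM, which raised all transcripts.

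Of the 125 described genes that were called without overlap, 74 belonged to a list and 51 to none. Genes without a described function made up 1832 of the table. Beside 2.22% up and 1.56% down among all transcripts, 50 of these genes rose and 10 fell. All transcripts did not overlap upwards for 21.0% and downwards for 21.1%, and the undescribed genes for 22.7% and 13.9%. The 3 largest decreases among these held, led by PAS_chr4_0080 from 1464, 1730 and 1176 FPKM to 306, 372 and 195 (-2.35, SE 0.233, adjusted p = 0.000506), with PAS_chr1-1_0486 at -1.29 (SE 0.194) and PAS_chr3_1212 at -1.38 (SE 0.309). Upwards, PAS_chr2-1_0003, a model of 162 bases, was listed at 0, 0.515 and 0.542 FPKM at 30 °C and at 21.7, 24.9 and 47.6 at 37 °C (4.53, SE 0.29, held). PAS_chr3_0408 rose from 23.4, 21.9 and 24.3 to 1539, 90.3 and 121 FPKM (3.41, SE 0.841), with replicate 1 far above, and was at 2.12 without it. Of the 40 transcripts assembled by the authors and absent from the gene models, 2 rose and 1 fell. The one with the largest increase, on chromosome 2 from 2390299 to 2393984, went from 0.189, 0.158 and 0.202 FPKM to 10.6, 13.1 and 4.07 (2.99, SE 0.341, adjusted p = 0.000806), which held.

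The heat response of G14 was then set beside that of the parent by the difference of the 2 contrasts, which share no library. In the parent, 712 transcripts rose (14%) and 384 fell (7.56%) at 37 °C. The response of G14 was more positive than that of the parent for 219 transcripts (4.31%) and more negative for 564 (11.1%). Of the 186 transcripts called without overlap in G14, 105 were called in the same direction in the parent, 65 upwards and 40 downwards, and 5 in the opposite direction. The difference itself was called for 46 of them. It was more positive for 4 of the 108 that rose and 16 of the 78 that fell, and more negative for 5 and 21. The 186 were chosen by the G14 contrast, which is part of the difference. These counts therefore cannot be set against the shares of all transcripts.

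The Hsp70 and Hsp90 list had medians of opposite sign in the strains. In the parent, 9 of the 17 Hsp70 and Hsp90 genes rose and 2 fell, and their median log2 fold change was 1.002 against -0.86 in G14. The difference was called for 12, more negative in G14 for 11 and more positive for 1. The median level of the list, as log2(FPKM + 1), was 11.62 in Parent_30 and 12.61 in Parent_37, against 10.04 in G14_30 and 9.07 in G14_37, so G14 was lower at both temperatures. The nucleotide exchange factor PAS_chr2-1_0042 had 3329, 3381 and 2955 FPKM in Parent_30 and 9299, 8886 and 7724 in Parent_37, and its difference in heat response was -2.98 (SE 0.223, limma adjusted p = 1.06e-05). For PAS_chr2-1_0140 the difference was -2.34 (adjusted p = 0.00118, and -1.96 without G14_37 replicate 1), and for Hsp90, PAS_chr1-4_0130, -2.03 (0.0106, and -1.51 without it). The bZIP factor PAS_chr1-1_0381 was at 362, 375 and 318 FPKM in Parent_30 and 610, 600 and 598 in Parent_37, a difference of -2.74 (adjusted p = 5.03e-05). For PAS_chr4_0552, with -2.31, the difference was not called (adjusted p = 0.0565). The probable Hsp40 PAS_chr4_0051 rose in both strains, by 1.89 and 1.61, and its difference of 0.29 had an adjusted p of 0.481.

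**Figure D4:**
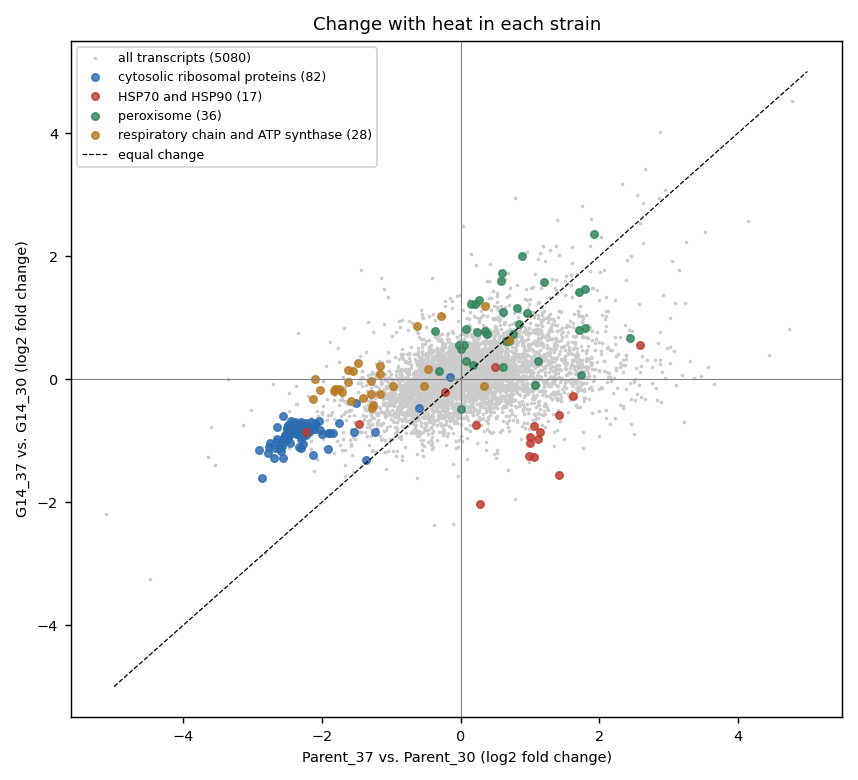
Log2 fold change at 37 against 30 °C in G14 (vertical) and in the parent (horizontal) for all 5080 transcripts (grey) and 4 lists in colour, with the dashed line at equal change. Ribosomal protein genes lie at medians of -0.87 in G14 and -2.36 in the parent, above the dashed line, and most Hsp70 and Hsp90 genes lie in the lower right, higher with heat in the parent and lower in G14.

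Ribosomal protein genes fell less in G14. In the parent 80 of the 82 fell, with a median of -2.36, and the difference was more positive in G14 for 72 and more negative for 0. S3, PAS_chr1-3_0115, had 1986, 1989 and 2160 FPKM in Parent_30 and 321, 253 and 384 in Parent_37, a difference of 1.41 (adjusted p = 0.00173). Respiratory chain genes showed a like pattern without a change in G14, with 20 of 28 called down in the parent (median -1.29) and a more positive response in G14 for 17. Ribosome biogenesis had a median of -0.31 in the parent, and the response was more negative in G14 for 13 of 94 genes, a share near the 11.1% of all transcripts. For the general amino acid permease PAS_chr1-1_0030 the strains moved apart. Its FPKM fell in the parent from 157, 188 and 137 to 65.8, 48.4 and 60.9, and the difference was 3.22 (SE 0.51, adjusted p = 0.000923). For the karyopherin PAS_chr1-3_0237, with 306, 319 and 283 FPKM in Parent_30 and 345, 259 and 371 in Parent_37, the difference was -1.38 (adjusted p = 0.000446). Peroxisome genes rose in the parent for 9 of 36, with a median of 0.61, and 2 had a more negative response in G14. The lowest listed FPKM was 2.49 to 5.21 in the Parent_37 libraries, 0.299 to 0.799 in Parent_30 and 0.208 to 0.53 in G14_37. The counts given here for the parent and for the difference take in all transcripts, those at low levels included. How far the higher floor of Parent_37 adds to increases in the parent and to more negative differences was not tested.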

How the data were processed

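RNA of the parent and G14 at 30 and 37 °C, 3 biological replicates each, was sequenced (12 libraries). The authors deposited FPKM for 5080 transcripts, using PICHIAGENOME gene models. The submitters' processing notes name CASAVA, HISAT2 2.0.5 and featureCounts 1.5.0-p3, and the name of the genome build is not given in the sources used here. FPKM times length was a whole multiple of 1 step per library for 100% of values (tolerance 0.05 fragments), so fragments were recovered. The deposited values already include a scaling between libraries.

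The model on log2(FPKM + 1) had 4 group means and 8 residual degrees of freedom (limma 3.58.1 with its trend option, R 4.3.3). A minimum mean of 1 FPKM removed no transcript. All adjusted p are from limma with Benjamini-Hochberg adjustment over 5080 transcripts. The fit was tested on simulated data with the same spread in every library. That setting has no library apart, so it does not bear on the part of G14_37 replicate 1. The study itself compared counts with another tool, and counts are not used here as the main test because the deposited unit is FPKM.

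The 34 lists are patterns on gene descriptions, and the study's symbols were matched by gene identifier for 39 of 39 genes. Members and lists were chosen with earlier results of these data known. Chosen as named genes were the 15 largest increases and decreases among described genes called without overlap that stay over the fold threshold without G14_37 replicate 1. Up to 4 members per list that were called without overlap were added, without that last condition (otherwise the member with the smallest p). Further added were 3 undescribed genes per direction and the genes tabulated by the study. These are the 111 named genes, and the text does not give each of them. Same-numbered replicates did not deviate together in every pair (correlations -0.02, 0.45 and 0.41), so no block was used.

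Alternatives were another pseudocount (0.1), a minimum mean of 10 FPKM or no filter, TPM and median-of-ratios scaling, G14 alone, array weights, limma treat, voom on the recovered fragments, the replicate block, and each library left out. A separate list of assembled transcripts holds positions only and was not used.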

Additional observations from a re-analysis of the deposited data

Results flagged for a closer look

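For 31 of the named genes, the heat response of G14 differed from that of the parent by the limma test of the difference itself (adjusted p under 0.05 and an absolute difference over 1 on the log2 scale; 4.31% of transcripts were more positive and 11.1% more negative). Values are the response of G14 minus that of the parent on the log2 scale, and 27 of the 31 were called with each of the 12 libraries left out in turn.

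Chaperone genes made up the largest group of these. The named genes take in chaperone lists and the chaperones tabulated by the study, so this does not give their share among all transcripts. The differences were -2.98 for the Hsp70 exchange factor PAS_chr2-1_0042, -2.34 for the ER ATPase PAS_chr2-1_0140, -2.24 for the regulator of Hsp90 and Hsp70 PAS_chr2-2_0066, -2.34 for the cyclophilin PAS_chr3_0567 and -1.07 for the ER lumen chaperone PAS_chr1-3_0063. The last was -0.81, under the threshold, without G14_37 replicate 1. They were -2.01 for the Hsp70 PAS_chr3_0230, -2.03 for Hsp90, PAS_chr1-4_0130, -2.08 for PAS_chr2-1_0518, -2.01 for PAS_chr3_0170, -1.88 for PAS_chr2-2_0323 and -1.76 for PAS_chr1-3_0102. For PAS_chr2-1_0323, an Hsp90 co-chaperone that did not pass in G14 and rose by 2.58 in the parent, the difference was -2.03.

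Regulators and uptake genes differed in either direction. The bZIP factor of the unfolded protein response PAS_chr1-1_0381 was at -2.74, the pheromone response factor PAS_chr4_0468 at -1.54, and *OPY2*, PAS_chr3_0637, at -1.24. The general amino acid permease PAS_chr1-1_0030 was at 3.22 and the protoporphyrin uptake protein PAS_chr2-1_0270 at -1.74. The choline transporter PAS_chr3_0511, at -1.02, was called in 8 of the 12 fits with a library left out and was between -1.11 and -0.91 over them. The karyopherin PAS_chr1-3_0237 was at -1.38.

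The ubiquitin and antioxidant genes among the 31 were not called with heat in G14. Their differences were -1.19 for polyubiquitin PAS_chr4_0762, -1.93 for PAS_chr2-2_0022, -2.10 for the ubiquitin protease PAS_chr3_0117, -1.68 for superoxide dismutase PAS_chr4_0786, -1.78 for thioredoxin peroxidase PAS_chr2-2_0220 and -2.56 for PAS_chr1-4_0659. Each of these 6 but the ligase component PAS_chr2-2_0022, which was lower in G14 without overlap, overlapped between temperatures in G14.

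More positive responses were found for ribosomal proteins S3, PAS_chr1-3_0115 (1.41), and L38, PAS_chr1-4_0412 (1.29, called in 7 of the 12 fits, adjusted p at most 0.0657), and for the mitochondrial isocitrate dehydrogenase subunit PAS_chr4_0580 (1.47). The undescribed genes PAS_chr4_0080, PAS_chr1-1_0486 and PAS_chr3_1212 were at -2.25, -1.79 and -1.27. The last was called in 4 of the 12 fits, with an adjusted p of up to 0.102.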

How the results depend on the processing

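The counts of 113 genes up and 79 down moved with TPM scaling, with how the spread was estimated and with single libraries. They were 240 and 29 under TPM, 28 and 17 with the 6 G14 libraries alone, 80 and 47 with array weights (G14_37 replicate 1 had a weight of 0.0999, and the weights had not converged), and 2 and 0 with limma treat, which tests against the fold threshold itself; by the limma test 2080 transcripts had an unadjusted p under 0.05, and voom on fragments called 114 and 85. With 1 library left out they ranged from 62 to 246 and from 42 to 177. A replicate block gave 123 up and 81 down, and 236 more positive and 562 more negative differences in heat response, against 219 and 564. Those differences were 1 and 113 with limma treat, and 172 to 303 and 489 to 619 with 1 library left out. Under TPM 1909 transcripts did not overlap upwards and 409 downwards. The medians of lists moved with that of all transcripts (0.22): ribosome biogenesis -0.33, tRNA -0.083, translation factors -0.28, mitochondrial import -0.003, TCA cycle 0.29, other chaperones -0.10, ubiquitin 0.41, antioxidant 0.30, iron 0.23, amino acid synthesis -0.03, transporters 0.45, sterol 0.19, inositol 0.35, cell wall 0.19, secretory pathway 0.12, autophagy 0.31, meiosis 0.46, DNA repair 0.33, chromatin 0.20, transcription factors 0.40, kinases 0.41, glycosylation 0.12 and mRNA splicing 0.13. The sterol, cell wall, secretory, chromatin, glycosylation and splicing medians among these changed sign. With 1 library left out, the medians ranged from 0.12 to 0.20 for ubiquitin, 0.041 to 0.196 for antioxidant and -0.146 to -0.054 for glycosylation genes. Of the 111 named genes 67 were called, and 0 of these changed sign in any alternative, while 15 kept the call in all but treat. The signs of 3 uncalled genes near 0 turned. PAS_chr4_0786 was at -0.036 with array weights and ranged from -0.201 to 0.292 with 1 library left out. PAS_chr3_0906 was at -0.007 with array weights, -0.001 with voom and -0.054 to 0.069 with 1 library left out. PAS_chr3_0637 was at 0.172 under TPM and -0.112 to 0.061 with 1 library left out. For low genes, 1 fragment limits the precision as given above.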
